A study of Mus musculus with 3 samples.

Results

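The genes described here form the Th1 and interferon gamma axis: Tbx21, Eomes, Hlx, Ifng, and 6 receptor chains, Il12rb1, Il12rb2, Il18r1, Il18rap, Ifngr1 and Ifngr2. They were taken by symbol from the 44788 rows of the deposited count table, where all 10 had a row, by a rule that uses the symbols and no measured value. The cells were T lymphocytes from spleens of BALB/c females aged 6 to 8 weeks, held in RPMI 1640 with 2% serum and exposed to LZ-8, a fungal immunomodulatory protein from Ganoderma lucidum, for 10 h. All 3 libraries carry that label, so there is 1 group of 3 replicates and no untreated control, and every value below is a level in treated cells and not an effect of LZ-8. The labels give no dose of LZ-8 and do not tie the replicates to separate animals or cultures, so p-values measure only a spread between libraries that may be technical. The beads used for isolation bind CD90.2 (Thy1) and take CD4 and CD8 cells alike, so levels are averages over a mixed pool, in which fewer cells of a type and less RNA per cell cannot be told apart.

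Th1 cells are helper T cells that make interferon gamma and direct macrophages against intracellular microbes. Interleukin-12 from antigen-presenting cells binds a receptor of Il12rb1 and Il12rb2 and acts through the kinases Tyk2 and Jak2 on Stat4, while interferon gamma binds Ifngr1 and Ifngr2 and acts through the kinases Jak1 and Jak2. Signals from this receptor induce Tbx21, which encodes T-bet, and T-bet and Stat4 drive Ifng and Il12rb2. Interleukin-18, whose receptor is built from Il18r1 and Il18rap, adds to the release of interferon gamma through Myd88.

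The bases upstream of the start sites of 3 of these genes are shown because Ifng is the product of the axis, Il12rb2 the receptor chain that marks cells able to answer interleukin-12, and Tbx21 the regulator set between them. Sequences are from RefSeq (GRCm38.p6), 250 bases up to the base before the start, 5′ to 3′ on the strand of the gene. Ifng lies at chr10:118440796-118441045 on the plus strand, Il12rb2 at chr6:67376189-67376438 on the minus strand and Tbx21 at chr11:97115332-97115581 on the minus strand. Capitals mark matches, on either strand, to 5 motifs: the STAT letters TTCNNNGAA, the T-box core GTGTGA, the AP-1 letters TGANTCA, the NFAT core GGAAA, and TATAAA, the letters of the box bound by the TATA-binding protein.
Ifng: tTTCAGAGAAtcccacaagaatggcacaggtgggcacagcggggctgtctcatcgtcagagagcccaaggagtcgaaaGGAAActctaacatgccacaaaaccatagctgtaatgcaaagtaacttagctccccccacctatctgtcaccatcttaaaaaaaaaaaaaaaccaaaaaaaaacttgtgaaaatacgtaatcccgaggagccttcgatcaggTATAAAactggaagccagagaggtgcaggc
Il12rb2: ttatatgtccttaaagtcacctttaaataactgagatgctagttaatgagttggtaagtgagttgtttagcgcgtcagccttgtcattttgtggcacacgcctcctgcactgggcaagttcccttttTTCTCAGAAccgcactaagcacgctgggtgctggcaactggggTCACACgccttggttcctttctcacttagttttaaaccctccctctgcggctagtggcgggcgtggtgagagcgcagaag
Tbx21: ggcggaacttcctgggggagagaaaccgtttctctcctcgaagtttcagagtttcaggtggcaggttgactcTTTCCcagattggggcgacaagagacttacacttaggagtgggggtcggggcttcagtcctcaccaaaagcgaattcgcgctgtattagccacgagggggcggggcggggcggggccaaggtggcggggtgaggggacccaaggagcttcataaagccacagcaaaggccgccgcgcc

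The Ifng window held TTCAGAGAA from base -249 to -241, GGAAA from -172 to -168 and TATAAA from -30 to -25, counted back from the start. The Il12rb2 window held TTCTCAGAA from -123 to -115 and TCACAC, the T-box core on the other strand, from -80 to -75. The Tbx21 window held only TTTCC, the NFAT core on the other strand, from -178 to -174. Of 32851 RefSeq windows of that length, 7.02% held the STAT letters, 12.3% the T-box core, 6.75% the AP-1 letters, 55.6% the NFAT core and 12.4% the TATA box. The longer T-box site AGGTGTGA, which contains the core, was in 1.12% of windows and in none of the members' windows. A match is only a match of letters, and a missing match says only that those letters are not in that window. Windows were found for 9 of the 10 genes, all but Il12rb1, and among them the share of G and C ran from 40.8% for the first of the 3 Il18r1 windows to 74% for Ifngr2, where the median of all windows was 52.4%.

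Total counts were 13239482, 15007652 and 15683820 in replicates 1, 2 and 3. A level is given as CPM, the count scaled to a common library size (1e6) with TMM factors, and as RPKM, the CPM divided by the exonic length in kilobases, which is the scale on which genes are compared. The floor used, 3 counts, was 0.236, 0.198 and 0.186 CPM in the libraries and, like the intervals, covers counting error only. All 13 T cell markers averaged 10 CPM or more, among them Cd6, Cd5, Lck and Trac. Their summed level was 4122 to 4253 CPM per library, and Cd4 (277 ± 4.73 CPM) and Cd8a (134 ± 15.3 CPM), named after their values were seen, were both present. The share of a copy of the 18S ribosomal RNA differed between the libraries, at 5.83%, 2.37% and 0.992% of counts in replicates 1, 2 and 3.

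Of the 10 genes, 9 were detected in every library, and 7 averaged 10 CPM or more, a level reached by 38.3% of 21024 protein-coding rows, 39.8% of rows with a count and 20.6% of all rows. Per kilobase of exon the levels fell into a high set (Ifng, Tbx21, Ifngr1 and Il12rb1, with means of 19.8 to 32.6 RPKM) and a low set (Ifngr2, Il12rb2, Il18r1, Eomes and Il18rap, 1.21 to 6.53 RPKM). Of the interleukin-12 and interferon gamma receptors 1 chain each stood in the high set, and of the interleukin-18 receptor none. Hlx had no count in any library.

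**Figure D1:**
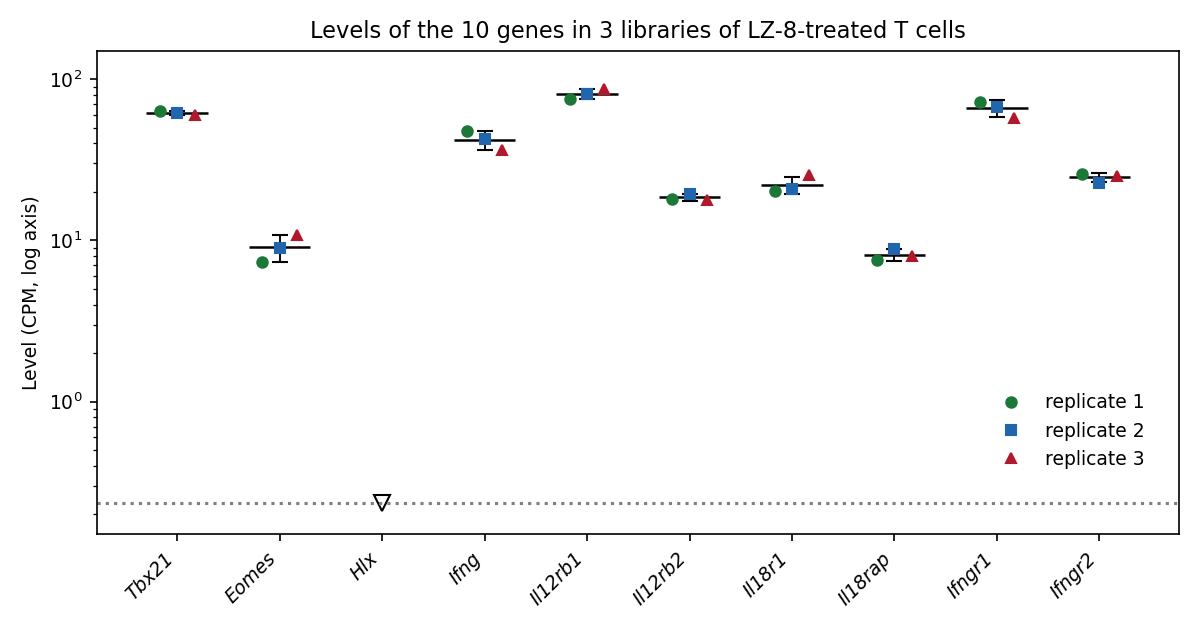
Level of each gene in CPM (log axis) in the 3 libraries; points are libraries, lines the mean and bars the SD (n = 3), and the open triangle sets Hlx, with 0 counts, at the highest floor of 3 counts (dotted line, 0.236 CPM). The 9 detected genes had means between 8.14 and 81.3 CPM.

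Among the regulators, Tbx21 had the highest level per kilobase. T-bet, its product, is the T-box factor that defines Th1 cells. Tbx21 (chromosome 11, 97098071 to 97115331, GRCm38) had 803, 932 and 963 counts, or 63.1, 61.5 and 59.7 CPM, in replicates 1, 2 and 3. The libraries lay within 1.06-fold of each other, and the coefficient of variation of 2.79% was below the 3.35% that counting alone gives. Per kilobase the mean was 24.7 ± 0.689 RPKM (SD, n = 3), above 86.3% of the 14303 protein-coding genes with a count.

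Eomes encodes eomesodermin, a T-box factor close to T-bet that is used above all by CD8 T cells and NK cells. Eomes (chromosome 9, 118478212 to 118486132) had 94, 136 and 175 counts, or 7.38, 8.97 and 10.8 CPM. Replicate 3 was the highest and replicate 1 the lowest, 1.47-fold apart, the widest gap among the members, and the mean was 2.18 ± 0.416 RPKM. Within each library Tbx21 exceeded Eomes per kilobase, by log2 ratios of 3.83, 3.52 and 3.20, a mean of 3.52 ± 0.32 or 11.4-fold. The difference was far larger than its SD. In an exact two-sided sign-flip test 3 libraries can reach no p below 0.25, which is the value here and for the other pairs fitted (adjusted p = 0.25 over 5 pairs).

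Hlx encodes a homeobox factor that acts with T-bet on Ifng in mouse Th1 cells. Hlx (chromosome 1, 184727140 to 184732619) had 0 counts in all libraries, below the floor of 0.0816 to 0.103 RPKM, so its transcript was not detectable at this depth. Against that floor in each library, Tbx21 was at least 245-fold, 284-fold and 294-fold higher per kilobase. An empty row was not rare: 32% of protein-coding rows and 48.4% of all rows had no count.

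Ifng, the cytokine gene of the axis, had the highest level per kilobase of all members. Ifng (chromosome 10, 118441046 to 118445892) had 608, 644 and 587 counts, or 47.8, 42.5 and 36.4 CPM in replicates 1, 2 and 3. Its short exonic length of 1295 bases put it at 36.9, 32.8 and 28.1 RPKM, a mean of 32.6 ± 4.41, above 90.3% of coding genes with a count. Replicate 1 was the highest and replicate 3 the lowest, 1.31-fold apart. Per kilobase Ifng exceeded Tbx21 in each library, with log2 ratios of 0.54, 0.41 and 0.23 (mean 0.39 ± 0.16), but raw counts, not divided by length, were higher for Tbx21, with a log2 ratio of Ifng to Tbx21 of -0.55. Of the exonic bases, 25.9% also lie in Gm49751, an annotated locus on the same strand inside the gene that was not analysed here. The nearest coding genes were far off, Gm9049 at 86.9 kb and Dyrk2 at 410 kb, with 74 to 87 and 880 to 1336 counts per library.

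The interleukin-12 receptor was uneven. Il12rb1, the chain it shares with the interleukin-23 receptor, had the highest CPM of all members, though not per kilobase, with 961, 1231 and 1409 counts, or 75.5, 81.2 and 87.3 CPM. Replicate 3 was 1.16-fold above replicate 1, and the mean was 19.8 ± 1.44 RPKM. Il12rb2, the chain specific to interleukin-12 and the one that recruits Stat4, had 229, 296 and 288 counts, or 17.99, 19.5 and 17.8 CPM. These lay within 1.09-fold of each other, and their coefficient of variation of 5.04% was below the 6.10% that counting gives. Il12rb1 exceeded Il12rb2 per kilobase by log2 ratios of 1.96, 1.94 and 2.18 (mean 2.02 ± 0.13, 4.07-fold).

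Il12rb2 carries a limit that the other chains do not. It lies on chromosome 6 from 67291318 to 67376188, and 1519 of its 3794 exonic bases (40.0%) also lie in exons of Serbp1, a gene on the opposite strand with 12367, 13603 and 12019 counts. Serbp1 was singled out after its values were seen. No source used here states whether the counting used the strand, so reads in the shared bases cannot be assigned. With those bases left out of its length, an alternative chosen after seeing the data, Il12rb2 was at 8.11 RPKM, against 4.86 with them. The log2 ratio of Il12rb1 to Il12rb2 was then 1.29. All its counts were kept, so this covers only the case that no read in the shared bases was counted. The opposite case, that Serbp1 reads were counted for Il12rb2 and raised its level, was not tested. Il12rb1 lies on chromosome 8 from 70808449 to 70821424 and overlaps no other annotated gene.

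The chains of the interleukin-18 receptor were both low. Il18r1, the chain that binds the ligand, had 257, 317 and 408 counts, or 20.2, 20.9 and 25.3 CPM, with replicate 3 the highest, 1.252-fold above replicate 1. Its mean was 4.59 ± 0.571 RPKM. Il18rap, the accessory chain needed for signalling, had 96, 134 and 130 counts, or 7.54, 8.84 and 8.05 CPM, and its mean of 1.21 ± 0.0967 RPKM was the lowest of the 9 detected genes. Il18r1 exceeded Il18rap per kilobase by log2 ratios of 1.91, 1.73 and 2.14 (mean 1.92 ± 0.20, 3.80-fold). The genes are neighbours on the plus strand of chromosome 1, Il18r1 from 40465552 to 40500854 and Il18rap from 40515362 to 40551705, 14.5 kb apart. Just before them lies Il1rl1, the receptor of interleukin-33, which ends 137 bases from the start of Il18r1 and had 63, 68 and 95 counts. On the other side Slc9a4 had no count.

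The interferon gamma receptor was led by its ligand-binding chain. Ifngr1 (chromosome 10, 19591949 to 19610229) had 925, 1025 and 922 counts, or 72.7, 67.6 and 57.1 CPM, with replicate 3 the lowest, and a mean of 23.1 ± 2.79 RPKM. Ifngr2, the chain that brings in Jak2, had 329, 346 and 406 counts, or 25.8, 22.8 and 25.1 CPM, and a mean of 6.53 ± 0.421 RPKM. Ifngr1 exceeded Ifngr2 per kilobase by log2 ratios of 1.90, 1.97 and 1.59 (mean 1.82 ± 0.20, 3.53-fold). Ifngr2 lies on chromosome 16 from 91547072 to 91565623, between Ifnar1, a chain of the type I interferon receptor with 1347, 1671 and 1752 counts, and Tmem50b with 354, 389 and 407.

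**Figure D2:**
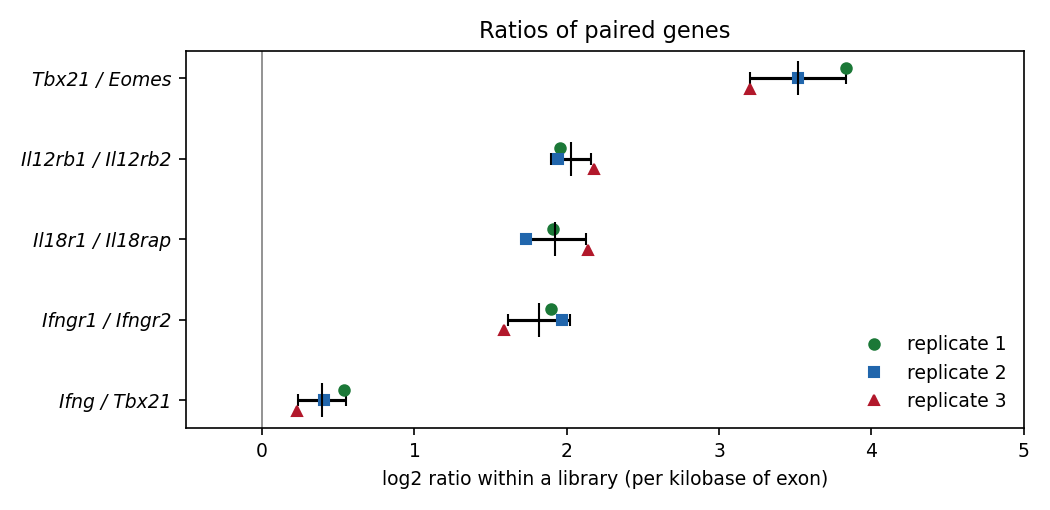
Log2 ratio of paired genes within each library, per kilobase of exon; points are the 3 libraries, the bar the mean and its arms the SD. All 15 points lie right of 0, with means between 0.39 for Ifng over Tbx21 and 3.52 for Tbx21 over Eomes.

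Ordered per kilobase, the detected genes ran Ifng, Tbx21, Ifngr1, Il12rb1, Ifngr2, Il12rb2, Il18r1, Eomes and Il18rap. In 5 of the 8 steps the upper gene was higher in all 3 libraries by more than the SD of the log2 ratio. The other steps did not differ beyond their spread: Tbx21 over Ifngr1 (log2 ratio 0.10 ± 0.14), Ifngr1 over Il12rb1 (0.22 ± 0.28) and Il12rb2 over Il18r1 (0.09 ± 0.22). The largest step was that of Il12rb1 over Ifngr2 (1.60 ± 0.15), the gap between the high and the low set. With the bases shared with Serbp1 left out of the length of Il12rb2 and its counts kept, Ifngr2 over Il12rb2 (0.42 ± 0.16) turned to -0.31. With the longest transcript as length that ratio was 0.11 ± 0.16. On raw counts Eomes over Il18rap was 0.14 ± 0.25.

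**Figure D3:**
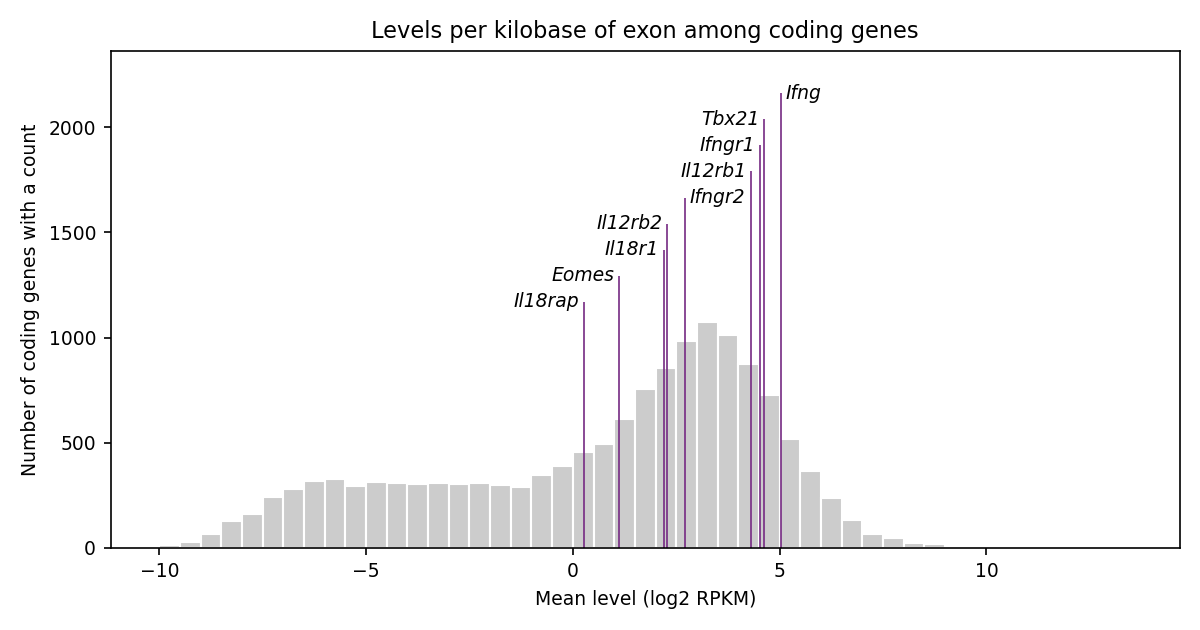
Number of the 14303 protein-coding genes with a count at each mean level (log2 RPKM, grey bars), with purple lines at the 9 detected genes of the axis. Ifng stands highest, at the 90.3 percentile, and Il18rap lowest, at the 36.7 percentile.

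A chi-square test that set each gene's counts against the scaled library sizes, over 15392 genes and with Benjamini-Hochberg adjustment, asked whether libraries differed beyond counting noise. It compares libraries and not conditions. Of the 9 members tested, 5 differed at an adjusted p of 0.05, against a background of 42.8% of all genes tested. Their median coefficient of variation was 8.02%, against 10.0% for coding genes tested. None of the 5 reached a 1.5-fold difference, which 13.8% of all genes did.

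The members that differed did not share a direction. Ifng (adjusted p = 6.51e-05, chi-square test) and Ifngr1 (3.94e-06) were highest in replicate 1 and lowest in replicate 3. Among genes tested, 17.9% differed with replicate 1 the highest, whichever library was lowest. Il12rb1 (adjusted p = 0.00701, chi-square test), Il18r1 (0.0164) and Eomes (0.0243) were highest in replicate 3 and lowest in replicate 1. Among genes tested, 19.1% differed with replicate 3 the highest, again whichever library was lowest. With replicate 2 the highest, 0 members differed (5.76% of genes). Tbx21, Il12rb2, Il18rap and Ifngr2 did not pass, with adjusted p from 0.337 to 0.608. Without replicate 3, 0 of 9 members differed in the chi-square test (1 at an unadjusted p under 0.05), against 22.8% of all genes. Without replicate 1, Ifng, Il18r1 and Ifngr1 differed, against 24.4%, and without replicate 2 all 5 did, against 41.6%. The 18S share also separated replicates 1 and 3. With libraries scaled by the total without the 18S row, the same 5 members differed, against 43.9% of all genes tested. Any part of the 18S share beyond this scaling was not tested. With each library's trend over exon length and GC content divided out, 4 of the 5 members still differed, against 36% of all genes. Ifng had 47.5, 41.9 and 37.9 CPM and was among them (adjusted p = 0.00239), while Il18r1 had 21.6, 20.7 and 24.1 CPM and no longer did (adjusted p = 0.194, chi-square test).

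**Figure D4:**
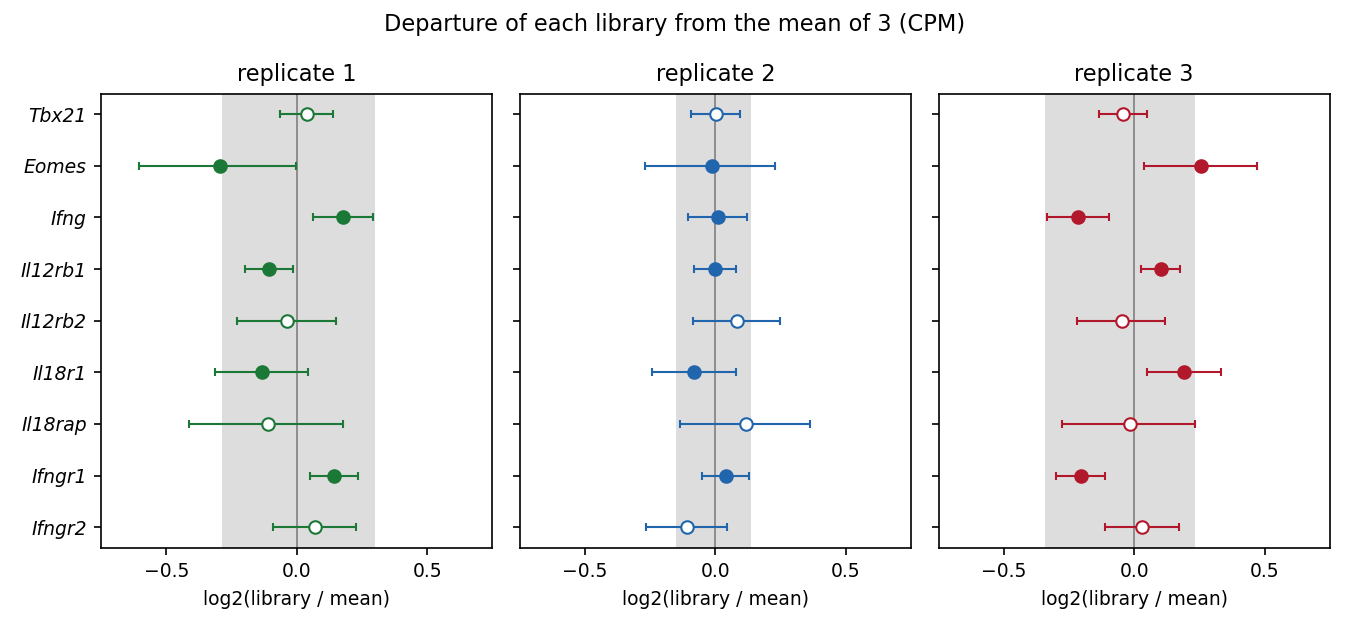
Departure of each library from the mean of the 3 (log2 of CPM over the mean); bars are 95% Poisson intervals of the count, filled points are genes that differed in the chi-square test, and grey bands hold the middle 90% of 5594 coding genes of like level. Ifng and Ifngr1 lie right of 0 in replicate 1 and left in replicate 3, and Eomes, Il12rb1 and Il18r1 the other way round.

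Transcripts of the ligands of the interleukin-12 and interleukin-18 receptors and of related cytokines were low. Of 7 such genes, 0 averaged 10 CPM or more and 5 were below 1 CPM in every library. Il12a had 3, 2 and 2 counts, and Il12b, which encodes the p40 chain of interleukin-12 and interleukin-23, had 3, 7 and 4. Il18 had 0, 4 and 1 counts, Il27 0, 1 and 0, and Il15 0, 0 and 2. The partners of p40 and p28 were detected, Il23a with 39, 22 and 23 counts (1.98 ± 0.939 CPM) and Ebi3 with 37, 43 and 73 (3.42 ± 0.954 CPM).

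The genes listed behind each receptor were all detected. List medians were 25.7, 11.9 and 32.2 RPKM for the interleukin-12, interleukin-18 and interferon gamma branches, against 6.74 RPKM for all coding genes tested. These lists are not of transducers alone. The interleukin-18 list holds the inhibitor gene Il18bp, and the interferon gamma list Socs1, Socs3, Ptpn2 and Ptpn11. Jak2, which serves both the interleukin-12 and interferon gamma receptors, was at 451 ± 39.4 CPM, Tyk2 at 137 ± 7.55 and Stat4, the transcription factor of interleukin-12 signalling, at 99.5 ± 3.74. Per kilobase, Stat4 was at 25.7 ± 0.967 RPKM, next to Tbx21 and above Tyk2 at 19.9 ± 1.10 RPKM. In the interleukin-18 branch 6 of 6 genes averaged 10 CPM or more. The kinase gene Irak1 was at 178 ± 10.5 CPM, Traf6 at 137 ± 16.4 and the adaptor Myd88 at 62.7 ± 8.59. Per kilobase Irak1 was at 37.8 ± 2.23 RPKM, and Myd88 (24.3 ± 3.33) stood above Traf6 (17.4 ± 2.08). Irak2 and Irak4 were at 28.3 ± 1.99 and 24.1 ± 2.81 CPM, and Il18bp, which encodes the soluble inhibitor of interleukin-18, at 13.6 ± 1.35.

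All 7 transducers and brakes of interferon gamma signalling also passed 10 CPM. Jak1 was at 440 ± 22.8 CPM and the phosphatase genes Ptpn11 and Ptpn2 at 242 ± 5.67 and 62.0 ± 9.07. Socs1, the feedback inhibitor of this receptor, had 47.6, 40.6 and 24.3 CPM, lowest in replicate 3, and Socs3 was at 19.8 ± 2.44.

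Genes that interferon gamma is known to induce were abundant: 18 of 23 averaged 10 CPM or more, and the list's median was 31.7 RPKM. Many also answer to type I interferon. The highest CPM were those of Tap1, the peptide transporter, at 483 ± 20.1 CPM, Nlrc5, the activator of MHC class I genes, at 452 ± 46.2, and the guanosine triphosphatase genes Igtp at 389 ± 98.1 and Gbp4 at 367 ± 14.1. The chemokine genes Cxcl9 and Cxcl11 and the enzyme genes Ido1 and Nos2, named after their values were seen, were below 1 CPM in every library, and Ciita, the activator of MHC class II genes, was at 2.43 ± 0.469 CPM. Of the 19 tested, 15 differed between libraries, against 42.8% of all genes. The chi-square test picks up small differences more readily at high counts, and these shares are not matched for level. The list's median was 160 CPM, against 18.5 CPM for all genes tested. Among the T cell markers, with a median of 276 CPM, 12 of 13 differed. Of the 19, 12 differed with replicate 3 the highest, against 19.1% of all genes tested, and 3 with replicate 1 the highest, against 17.9%. Among the 6589 genes of the series that differed, 2945 were highest in replicate 3 and 2758 in replicate 1. With the length and GC trend divided out 14 of the 19 differed, against 36% of all genes tested. Of the 19, 10 then differed with replicate 3 the highest, against 15.1%, and 4 with replicate 1 the highest, against 15.4%. Without replicate 1, 2 or 3 the number that differed was 11, 15 and 9, against 24.4%, 41.6% and 22.8% of all genes.

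Among 21 genes of the Th1 programme, 15 averaged 10 CPM or more, and the median was 15.1 RPKM. Il2rb, the beta chain of the interleukin-2 receptor, was at 427 ± 5.18 CPM, Irf1 at 324 ± 19.4, Bhlhe40, a transcription factor that favours Ifng in Th1 cells, at 250 ± 8.32, and the chemokine gene Ccl4 at 120 ± 8.19. Of the 20 tested, 10 differed between libraries, near the 42.8% of all genes. Of the 20, 6 differed with replicate 1 the highest, 2 with replicate 2 and 2 with replicate 3, against 17.9%, 5.76% and 19.1% of all genes tested. With the length and GC trend divided out 9 differed, against 36%, and replicate 3 then had the most, with 3, 2 and 4 genes highest in replicates 1, 2 and 3. Without replicate 1, 2 or 3 the number was 8, 11 and 5, against 24.4%, 41.6% and 22.8% of all genes.

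**Figure D5:**
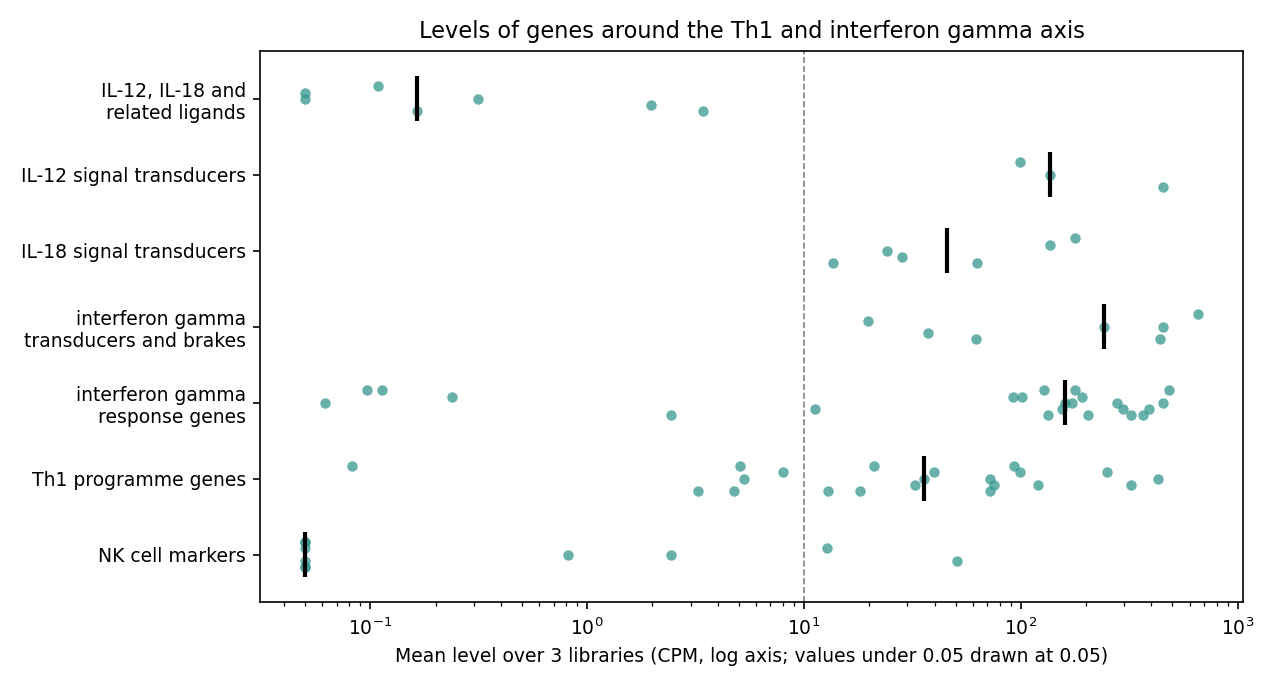
Mean level over 3 libraries (CPM, log axis) of each gene in 7 lists; black bars are list medians, the dashed line is 10 CPM and values under 0.05 CPM are drawn there. Ligand genes all lie left of the line and genes of the transducer lists, brakes and Il18bp included, all right of it. Of the interferon gamma response genes, 18 of 23 lie right of it.

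Per kilobase, Tbx21 stood between the regulators of other helper fates. Foxp3, which directs regulatory T cells, was above it at 47.5 ± 0.317 RPKM. Gata3, which directs Th2 cells, was below it at 9.05 ± 1.197 RPKM, as was Bcl6 of follicular helper cells at 5.92 ± 0.399.

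NK cells also carry Tbx21, Eomes, Ifng and the receptors of interleukin-12 and interleukin-18, so their markers were read beside these genes. Summed over 10 markers, the level was 64.9 to 69.4 CPM per library, or 1.53% to 1.65% of the T cell marker sum, and 2 of 10 averaged 10 CPM or more. Those were Nkg7 at 51.0 ± 1.36 CPM and Prf1 at 12.7 ± 1.16, granule genes that cytotoxic T cells also express, followed by Klrd1 at 2.44 ± 0.150 and Klrb1c at 0.815 ± 0.0456. Ncr1, the activating receptor that defines mouse NK cells, had 0 counts in every library, as had Klra4, Klra8 and Klra9, while Klre1 had 0, 0 and 2. BALB/c mice lack Klra4 and Klra8, so those zeros carry no information. Of the 4 NK markers tested, 0 differed between libraries in the chi-square test, against 42.8% of all genes (adjusted p from 0.336 to 0.974, 0 at an unadjusted p under 0.05). With the length and GC trend divided out 1 of 4 differed, highest in replicate 3, against 36% of all genes. These 4 genes are too few to show whether the NK share differed between libraries, and Klrb1c had only 10, 12 and 14 counts. The part of NK cells in the levels and library differences of these genes was not tested.

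Markers of other cells were low, and their part in these levels was not tested. The B cell markers summed to 12.8 ± 0.713 CPM. The macrophage and monocyte markers summed to 13.6 to 16.9 CPM, led by Mpeg1 at 9.20 ± 1.44 and Cd68 at 5.57 ± 0.265, while Csf1r had no count. The dendritic cell markers summed to 10.4 to 12.5 CPM, led by Zbtb46 at 9.90 ± 0.888, with Siglech and Clec9a at 0. Neutrophil markers summed to 0.124 to 1.02 CPM.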

How the data were processed

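RNA was extracted with Trizol and libraries were made with an Ion Proton RNA-Seq kit, per the labels' protocols. Raw counts by gene symbol were deposited as 1 table, with a column for each of 3 replicates (13239482, 15007652 and 15683820 counts). The submitters' processing notes name mm10 as build, while aligner, counting tool, annotation and strand setting are not stated in them.

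Counts were scaled with TMM factors (0.962, 1.01 and 1.03) from edgeR 4.0.16 in R 4.3.3 and given as CPM, and as RPKM over the union of exons in GENCODE release M21 (GRCm38), where 32221 symbols matched, 1224 of them through older names such as Emr1 for Adgre1. Libraries were compared with a chi-square test wherever every library's expected count reached 5, Benjamini-Hochberg adjusted over all of them. The test was also run on simulated Poisson counts with known changes. Such counts hold no spread beyond counting, so that run cannot tell how the test does on real libraries. Poisson noise of a count gives the counting error. Log2 ratios within a library used an exact two-sided sign-flip test. For the trend of each library, robust fits (MASS 7.3.60.0.1) used splines of exon length and GC content (6 degrees of freedom, genes from 5 CPM up). Alternatives included DESeq2 1.42.0 size factors.

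The members, lists, pairs and alternatives were chosen with earlier results of these data known. Named genes are the members, up to 4 of the highest genes of each list, all genes of the ligand, transducer and regulator lists, and the neighbours of Ifng, Ifngr2 and the Il18r1 and Il18rap pair. Some genes that this rule names are left out of the text. Genes sharing exons or near-identical copies are uncertain.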

Additional observations from a re-analysis of the deposited data

How the results depend on the processing

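DESeq2 size factors, no scaling factor, a total without the 18S row and other low-count filters left 7 members at 10 CPM or more. They left 5 of 9 members differing between libraries, against 27.6% to 50.4% of all genes tested. At an adjusted p of 0.01, 3 of 9 members differed, against 33.6% of all genes tested (chi-square test). With a limit of 1.5-fold 0 members differed, against 13.8% (2130 genes). An unadjusted p under 0.05 was found for 5 of the members. Leaving out 1 replicate gave 0 to 5 members and 3555 to 6384 genes, or 22.8% to 41.6% of all genes tested. Without length, the log2 ratio of Ifng to Tbx21 turned to -0.55, that of Tbx21 to Ifngr1 to -0.093, of Ifngr1 to Il12rb1 to -0.31 and of Il12rb2 to Il18r1 to -0.26. With the longest transcript as length Tbx21 over Ifngr1 was -0.33. With the bases shared with Serbp1 left out of the length of Il12rb2, Ifngr2 over Il12rb2 was -0.31. These follow from the lengths used. The other ratios kept their direction under each alternative run. Tbx21 over Hlx could not be fitted, since Hlx had no count. No paired analysis was possible because all libraries belong to 1 group. Depth limits Eomes and Il18rap most, where counting alone gives a coefficient of variation of 8.65% and 9.17%.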

Other observations

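Of 16 T-box genes, Tbx21 and Eomes included, 7 had no count in any library and 12 were below 1 CPM in every library. Mga, a large MAX-binding factor that also carries a T-box, had the highest CPM, at 171 ± 23.5 CPM, but per kilobase it was at 11.2 ± 1.53 RPKM, below Tbx21 at 24.7 ± 0.689 RPKM. Tbx6 was at 2.42 ± 0.272 RPKM, next to Eomes at 2.18 ± 0.416 RPKM.

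Among 13 related cytokine receptor genes, 9 averaged 10 CPM or more. Il6st, the shared chain gp130, was at 257 ± 8.43 CPM, and Il27ra, its partner in the interleukin-27 receptor, at 197 ± 12.7 CPM. Per kilobase the order was the reverse, with Il6st at 23.1 ± 0.760 RPKM and Il27ra at 56.3 ± 3.64 RPKM. Ifnar1 was at 108 ± 2.21 CPM and Il10rb at 31.7 ± 0.842 CPM. The neighbour of Ifngr1, Il22ra2, which encodes a soluble receptor of interleukin-22, had no count, and Il23r, the neighbour of Il12rb2, had 16, 13 and 27 counts.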
